A study of Mus musculus with 12 samples.

Results

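The response of the retina to the glutamate agonist NMDA was compared between wild-type (WT) mice and mice whose retinas carried a short hairpin RNA against *Pax6* (shPax6). For every gene, the log2 change from PBS to NMDA in shPax6 retinas was subtracted from the same change in WT retinas, so that a positive response difference marks a response that was higher in WT. Members were the 8 libraries, of 12 in the series, that the labels assign to these 4 groups, with 2 libraries in each. Both genotypes were C57BL/6J retinas that received 1 μL of PBS or 1 μL of 40 mM NMDA (40 nmol) in the vitreous. No virus is named for the WT PBS and WT NMDA groups. The shPax6 PBS and shPax6 NMDA groups had been infected with an AAV vector in which a U6 promoter drives the hairpin and which also carries GFP, a design that acts in whichever cells the virus enters. No library of retinas given the scrambled-hairpin vector was among the 12, so infection and knockdown cannot be told apart. RNA of a library came from a pool of more than 3 retinas, and the labels give neither the age of the mice nor the time after injection. They do not say whether the 2 libraries of a group came from separate animals, so p-values measure the spread between libraries, which may be technical. The other 4 libraries, from JNK3 KO retinas, entered the model to help estimate the spread and are not described.

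NMDA opens ionotropic glutamate receptors and in excess overloads neurons of the inner retina with calcium, which kills retinal ganglion cells (RGCs) and amacrine cells and is followed by stress signaling, reactive Müller glia and inflammation. *Pax6* encodes a paired-box homeodomain transcription factor that specifies the eye and stays on in adult RGCs, amacrine and horizontal cells. A difference between 2 responses can come from either injured group or from either baseline, so each gene class is described in all 4 groups.

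*Pax6*, the targeted gene, was lower in the knockdown libraries after PBS and not after NMDA. The gene (chr2:105668900-105697364, GRCm38) had 173 and 177 FPKM, a read level scaled to gene length and library total, in WT PBS, compared with 94.6 and 92.8 FPKM in shPax6 PBS. In the injured retinas the WT libraries had 55.4 and 53.8 FPKM and the shPax6 libraries 67.5 and 58.7 FPKM, so that the knockdown libraries were then the higher of the pair. *Pde6g*, a rod phototransduction gene that marks the retina, lay between 1106 and 4248 FPKM in all 8 libraries.

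3 features set single groups apart before any response was compared. *Xist*, the noncoding RNA made from the inactive X chromosome of female cells, was at 138 and 126 FPKM in shPax6 NMDA and at 0.22 FPKM or less in the other 6 libraries. The Y-linked *Eif2s3y* was at 17.7 and 19.9 FPKM in shPax6 NMDA and at 37.4 to 62.5 FPKM in the other 6. *Ddx3y*, also Y-linked, did not set that group apart, with 5.58 and 6.21 FPKM in shPax6 NMDA, 3.1 and 3.4 FPKM in WT NMDA and 10.9 to 13.6 FPKM in the 4 PBS libraries. The shPax6 NMDA libraries thus held transcripts of female and of male cells, while the labels name a sex, male, only for purchased control mice. The sex of the mice cannot be told apart from this group.

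Transcripts of antibody genes also came from the shPax6 NMDA libraries. Of 218 immunoglobulin variable genes in the annotation, 85 and 100 were above 0 in the 2 shPax6 NMDA libraries and at most 9 in any other of the 8. The FPKM of these genes summed to 1467 and 1422 in shPax6 NMDA and to no more than 6.4 elsewhere. *Igkc*, the kappa light-chain constant region, stood at 1026 and 991 FPKM in shPax6 NMDA and between 0.1 and 2.11 FPKM in the other 6 libraries, and *Igha*, the heavy chain of IgA, at 399 and 425 FPKM against 0.53 to 3.31 FPKM. *Jchain*, which joins secreted IgA and IgM, was at 73.6 and 66.4 FPKM against 6.55 to 9.75 FPKM. *Mzb1*, a chaperone of antibody secretion, was at 8.13 and 5.18 FPKM against 0.8 FPKM or less. These genes, chosen after their values were seen, mark B-lineage cells that secrete antibody. In all, 80 tested genes were above 0 in both shPax6 NMDA libraries and at 0 in the other 6, of which 73 were immunoglobulin genes. The same count was 8 for WT PBS, 10 for WT NMDA and 2 for shPax6 PBS.

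Connective tissue genes, also chosen after their values were seen, moved with the antibody genes. The FPKM of 16 tested genes, collagens and small matrix proteoglycans among them, summed to 194 and 204 in shPax6 NMDA, against 37.8 to 85.2 in the other libraries. *Col1a1* was at 5.26 and 5.32 FPKM in shPax6 NMDA and at 0.64 FPKM or less elsewhere. *Dcn* (decorin) was at 5.44 and 4.47 FPKM against 1.45 FPKM or less. The part of blood, meningeal or other non-retinal cells in the results below was not tested.

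The WT NMDA libraries stood apart as well. Summed over all genes and in units of 1000, their FPKM came to 805.6 and 820.2, against 541.2 to 576.7 in the other 6 libraries. Short genes rose and long genes fell in them, with a Spearman rank correlation of -0.565 between the WT response and spliced length over 16452 genes, compared with -0.173 for the shPax6 response. Genes under 1 kb had a median response difference of 0.81, those of 1 to 2 kb one of 0.29, those of 2 to 4 kb one of -0.43 and those over 4 kb one of -1.08. The cause of this trend was not tested. Results are therefore also given with the dependence on spliced length taken out of every library, which brought the 4 medians to between 0.01 and 0.09, as the plot by length shows. The correction cannot tell a technical trend from a biological one, and ribosomal and respiratory genes are short while chromatin genes are long.

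**Figure D1:**
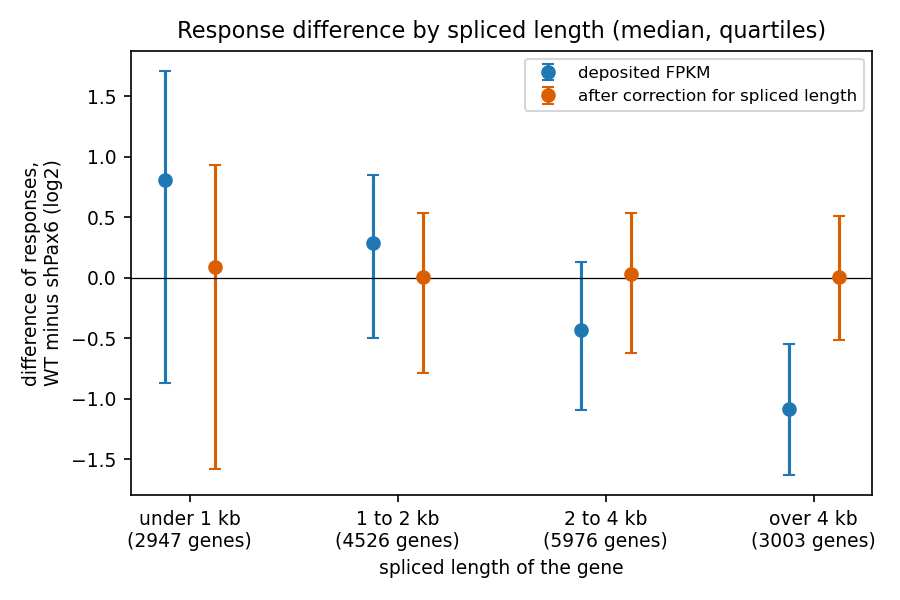
Response difference (WT minus shPax6, log2) by spliced length of the gene, on the deposited FPKM (blue) and after the length correction (orange). Points are medians and bars the quartiles over genes. The deposited values step down from 0.81 under 1 kb to -1.08 over 4 kb, and the corrected medians lie between 0.01 and 0.09.

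A response difference was found for about 3 in 10 genes and more often downward. Of 16471 genes tested with limma on log2(FPKM + 0.1), 1693 (10.3%) had a response that was higher in WT and 3571 (21.7%) one that was lower in WT, the calls being those with a difference of more than 1 in size and a p under 0.05 after Benjamini-Hochberg adjustment. The median response difference over all genes was -0.28. After the length correction 1215 genes (7.38%) were higher and 1804 (11.0%) lower, with a median of 0.03. The share of called genes that was higher in WT was 32.2% on the deposited values, 40.2% after the length correction, 10.2% on TPM and 45.1% after quantile normalization, and the median over all genes moved to -0.80 on TPM and -0.01 after quantile normalization. Directions below are therefore read beside the median of all genes. Counts of list members called higher and lower are read beside 10.3% and 21.7% of all genes. After the length correction these shares are 7.38% and 11.0%.

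Sorted by which of the 2 responses was itself called, the genes fell into 6 classes. The largest held 2276 genes that fell in WT, of which 55 also fell in shPax6 retinas and 2221 had no called shPax6 response, with a median response difference of -1.69 and a median spliced length of 4212 bases. The next held 1231 genes that rose in WT, of which 12 also rose in shPax6 retinas and 1219 had no called shPax6 response, with a median difference of 1.47 and a median length of 939 bases. In both, a minority of genes was still called in the same direction after the length correction, 37.3% of the former and 35.0% of the latter. The classes set by the shPax6 response were smaller and moved less with length. Of 671 genes that rose in shPax6 retinas, 41 also rose in WT and 630 had no called WT response, and 74.8% of the 671 kept the call. Of 194 genes that fell in shPax6 retinas, 16 also fell in WT and 178 had no called WT response, and 76.8% of the 194 kept the call.

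Opposite responses were rare. A total of 30 genes rose in WT and fell in shPax6 retinas, and 92 fell in WT and rose in shPax6 retinas, of which 100% and 93.5% kept the difference after the length correction. For a further 770 genes the difference was called while neither response was. Without shPax6 NMDA replicate 2, the class of 30 grew to 76 and the class of 194 to 350. Among the 671 genes that rose more in shPax6 retinas, 83 were immunoglobulin genes and 114 were at 0 in both libraries of at least 1 group, for which the fitted change is no measure of size. The scatter of the responses shows these as a vertical line at a WT response of 0.

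**Figure D2:**
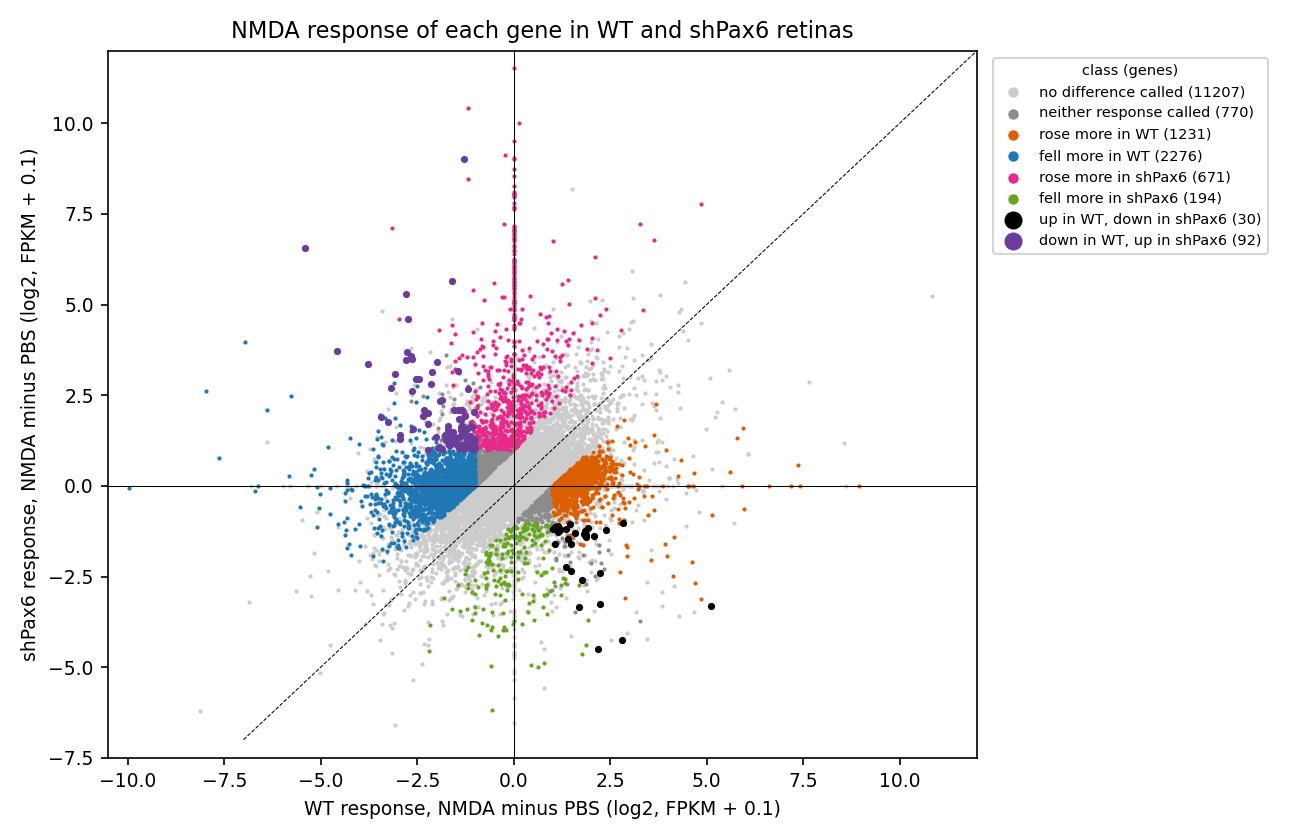
NMDA response of each of 16471 genes (points) in WT (x axis) and shPax6 retinas (y axis), as log2 of (FPKM + 0.1), colored by class with the number of genes. The dashed line marks equal responses. The 2276 genes that fell more in WT lie left of the center, the 1231 that rose more in WT right of it, and the 92 and 30 genes with opposite responses in the upper left and lower right.

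On the deposited values, genes for protein synthesis and respiration rose in WT after NMDA and less or not at all in shPax6 retinas. Of 79 cytosolic ribosomal protein genes, the structural parts of the ribosome, 75 had a higher response in WT and 0 a lower one, against 10.3% and 21.7% of all genes. Their median response was 2.11 in WT and 0.48 in shPax6 retinas, and 79 rose in WT and 2 in shPax6 retinas, against 14.2% and 8.64% of all genes. *Rps29* rose from 1026 and 1111 FPKM to 4223 and 4588 FPKM in WT and went from 1289 and 1148 FPKM to 1358 and 1478 FPKM in shPax6 retinas. The WT NMDA libraries alone stood high, and the shPax6 NMDA values lay just above those of shPax6 PBS. *Rps29* had a response difference of 1.82 (standard error 0.10, limma adjusted p = 2.48e-06). *Rpl38* had a difference of 1.99 (standard error 0.14, limma adjusted p = 7.74e-06) and *Rpl3*, which helps form the peptidyl transferase center, one of 1.3 (limma adjusted p = 1.86e-06). After the length correction 25 of the 79 genes passed and 0 fell below, with a list median of 0.84. The median WT response of the list was then 1.03, with 43 of the 79 genes rising. After quantile normalization the list median of the difference was 0.53. For *Rpl3* the difference was 0.90 after the length correction and 0.10 after quantile normalization. Many ribosomal genes have processed pseudogenes of near-identical sequence, so the division of reads among them is uncertain.

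Respiratory chain subunits encoded in the nucleus shared this pattern, with 60 of 78 genes higher in WT and 0 lower. *Atp5e*, a subunit of the ATP synthase, was at 208 and 230 FPKM in WT PBS, 1115 and 1268 FPKM in WT NMDA, 294 and 254 FPKM in shPax6 PBS and 308 and 326 FPKM in shPax6 NMDA. The 2 responses differed by 2.23 (standard error 0.13, limma adjusted p = 4.06e-06) and 1.57 after the length correction. *Cox7c*, a subunit of cytochrome c oxidase, differed by 1.5 (limma adjusted p = 1.24e-05) and by 0.71 after the correction. Of 78 mitochondrial ribosomal protein genes 48 were higher in WT, and of 34 genes of the constitutive proteasome 13. After the correction these 3 lists had medians of 0.63, 0.59 and 0.38 with 14, 11 and 4 genes higher and 0 lower in each. Their median WT responses were then 0.469, 0.465 and 0.419, with 10, 6 and 3 genes rising. On the deposited values these were 1.51, 1.338 and 1.045, with 64, 54 and 19 genes rising. After quantile normalization the median differences were 0.625, 0.976 and 0.417. The 13 genes encoded by mitochondrial DNA, whose transcripts are made in the organelle, did not share the pattern. Of these, 1 was higher and 3 lower in WT, near the 10.3% and 21.7% of all genes, with a median of -0.41. After the correction 0 were higher and 5 lower, against 7.38% and 11.0% of all genes, with a median of -0.78.

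*Bax*, the pore-forming effector of mitochondrial apoptosis, was among the genes that rose more in WT. It rose from 34 and 41.1 FPKM to 118 and 113 FPKM in WT. In shPax6 retinas it went from 43.9 and 39.5 FPKM to 49.0 and 63.7 FPKM. The WT NMDA values thus lay above all others, and the shPax6 groups did not overlap each other either. The response difference was 1.20 (standard error 0.19, limma adjusted p = 0.000788), and 0.42 (limma adjusted p = 0.091) after the length correction, 0.67 on TPM and 0.76 after quantile normalization, each below the threshold of 1.

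The other death genes that the study names had differences of the same sign as *Bax* on the deposited values and with less certainty, and the choice of these genes on the same libraries makes their direction no independent evidence. *Pdcd2*, a ribosome-linked gene first named for programmed cell death, differed by 1.39 (standard error 0.33, limma adjusted p = 0.00762), and by 0.56 (adjusted p = 0.247) after the length correction and 0.93 without shPax6 NMDA replicate 2, where it stood at 15.8 FPKM beside 30.1 FPKM in replicate 1. *Bad*, a BH3-only protein, differed by 0.98 (limma adjusted p = 0.0146) and by 0.25 after the correction, and passed 1 in 4 settings, with values of 1.008 to 1.129. *Ing4* differed by 0.52 (limma adjusted p = 0.0055), *Gadd45a*, a DNA damage gene, by 0.53 (adjusted p = 0.0586) and *Dedd2* by 0.50 (adjusted p = 0.124). The sign turned for *Gadd45a* after the length correction (-0.089) and for *Ing4* (-0.001) and *Dedd2* (-0.023) on TPM. On TPM the median of all genes was -0.80. Of the 6 genes, 2 were called on the deposited values and 0 after the length correction. Counts in wider death lists stand against 10.3% of all genes higher and 21.7% lower in WT. Of BCL2 effector and BH3-only genes, 2 of 10 were higher and 2 lower, with a median of -0.56. Of caspases and apoptosome genes, 2 of 12 were higher and 3 lower, with a median of 0.20 that was -0.04 after the length correction. Of anti-apoptotic genes, 0 of 13 were higher and 3 lower, with a median of -0.66. After the length correction their median was 0.26, yet 0 were higher and 4 lower, against 7.38% and 11.0% of all genes. *Ddit3*, the stress factor CHOP, differed by 1.43 (limma adjusted p = 2.78e-05) and by 0.63 after the correction. Lists of stress and signaling genes ranged from medians near 0 to negative ones. The median was -0.99 for 18 genes of axon injury and regeneration, or -0.715 after the length correction. For 18 genes of the NRF2 antioxidant response it was -0.63, but only -0.097 after the correction. It was -0.02 for 32 genes of the integrated stress response and -0.01 for 19 genes of NF-κB subunits and feedback, values that change sign with the length correction (0.14 and 0.23).

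For each class, up to 5 genes with the largest difference among those still called after the length correction and not at 0 in any library were named. In the class that rose more in WT, several share sequence with other genes. *Gm10073* and *Rps27rt*, which resemble ribosomal protein genes, differed by 3.33 and 2.65 (limma adjusted p = 0.00144 and 0.000346). *Gm21992* differed by 2.86, and its annotated locus overlaps those of other genes, so reads may be split among them. *Sap25*, a subunit of a Sin3 corepressor complex, stood at 4.6 and 7.27 FPKM in WT PBS, 54.1 and 55.8 FPKM in WT NMDA, 8.05 and 2.91 FPKM in shPax6 PBS and 6.57 and 3.15 FPKM in shPax6 NMDA, a difference of 3.31 (limma adjusted p = 0.00274). *Map3k6*, a kinase upstream of JNK and p38, differed by 3.02 (limma adjusted p = 0.0284), and by 1.784 to 4.259 without single libraries. The call was lost without either WT PBS, either WT NMDA or either shPax6 NMDA library. It was also lost with no filter, on TPM and with the spread of the 4 groups (limma adjusted p = 0.0574, 0.0568 and 0.0742).

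Cone genes fell in shPax6 retinas, 11 of 13 against 4.94% of all genes. In WT 3 of the 13 rose and 3 fell, against 14.2% and 20.9% of all genes. After the length correction 10 fell in shPax6 retinas, and in WT 1 rose and 2 fell. Cones sense bright light and color, and their phototransduction proteins are coded apart from those of rods. Of 13 cone genes, 9 had a higher response in WT and 0 a lower one, with a median of 1.47 on the deposited values, 1.62 after the length correction, 0.95 on TPM and 1.62 after quantile normalization. *Gngt2*, the gamma subunit of the cone transducin, was at 117 and 114 FPKM in WT PBS and rose to 418 and 467 FPKM in WT NMDA. In shPax6 retinas it fell from 183 and 181 FPKM to 76.4 and 85.4 FPKM. No 2 of the 4 groups overlapped, and the order of the 2 genotypes after PBS was turned around after NMDA. The response difference came to 3.11 (standard error 0.10, limma adjusted p = 6.08e-07), and 2.28 after the correction. *Pde6h*, the inhibitory subunit of the cone phosphodiesterase, moved the same way, with a WT response of 1.48, a shPax6 response of -1.60 and a difference of 3.08 (limma adjusted p = 4.57e-06).

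Other cone genes fell in shPax6 retinas and fell less or hardly changed in WT. *Opn1sw*, the short-wavelength opsin, went from 111 and 117 FPKM to 61.8 and 52.4 FPKM in WT and from 383 and 334 FPKM to 35.2 and 28 FPKM in shPax6 retinas. The shPax6 PBS libraries were thus the highest and the shPax6 NMDA libraries the lowest of the 4 groups. The difference was 2.51 (standard error 0.17, limma adjusted p = 6.37e-06). *Arr3*, cone arrestin, differed by 2.05 and *Gnat2*, the cone transducin alpha subunit, by 2.02 (limma adjusted p = 6.74e-06 and 2.73e-06). *Gnat2* changed by -0.07 in WT and by -2.09 in shPax6 retinas. Under PBS the median cone gene was 0.66 higher in shPax6 than in WT retinas, and after NMDA 0.86 lower, so that baseline and injured groups both entered the difference.

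Rod genes were divided. Of 20 rod phototransduction genes 8 were higher and 2 lower in WT. Their median was 0.47, or 1.04 after the length correction, -0.05 on TPM and -0.23 after quantile normalization. The median of all genes was -0.28, 0.03, -0.80 and -0.01 in the same order. The rod median lay below it only after quantile normalization. *Pde6g*, the small inhibitory subunit of the rod phosphodiesterase, rose from 1795 and 1913 FPKM to 4216 and 4248 FPKM in WT and fell from 2684 and 2488 FPKM to 1106 and 1169 FPKM in shPax6 retinas. The 2 genotypes moved in opposite directions, by a difference of 2.38 (standard error 0.07, limma adjusted p = 6.08e-07), or 1.59 after the correction. *Gngt1*, the rod transducin gamma subunit, differed by 2.11 (limma adjusted p = 5.37e-07), though by 0.62 after quantile normalization.

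A pair of rod genes of signal recovery went the other way. *Rgs9*, which speeds the shutoff of transducin, dropped from 217 and 197 FPKM to 11.3 and 19.3 FPKM in WT, while in shPax6 retinas it went from 372 and 349 FPKM to 293 and 299 FPKM. The WT NMDA libraries were far below the other 6. WT and shPax6 responses differed by -3.52 (standard error 0.27, limma adjusted p = 1.42e-05) and -3.27 after the correction. *Gucy2f*, a retinal guanylate cyclase, differed by -2.95 (limma adjusted p = 1.12e-05) and by -1.57 after the correction.

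**Figure D3:**
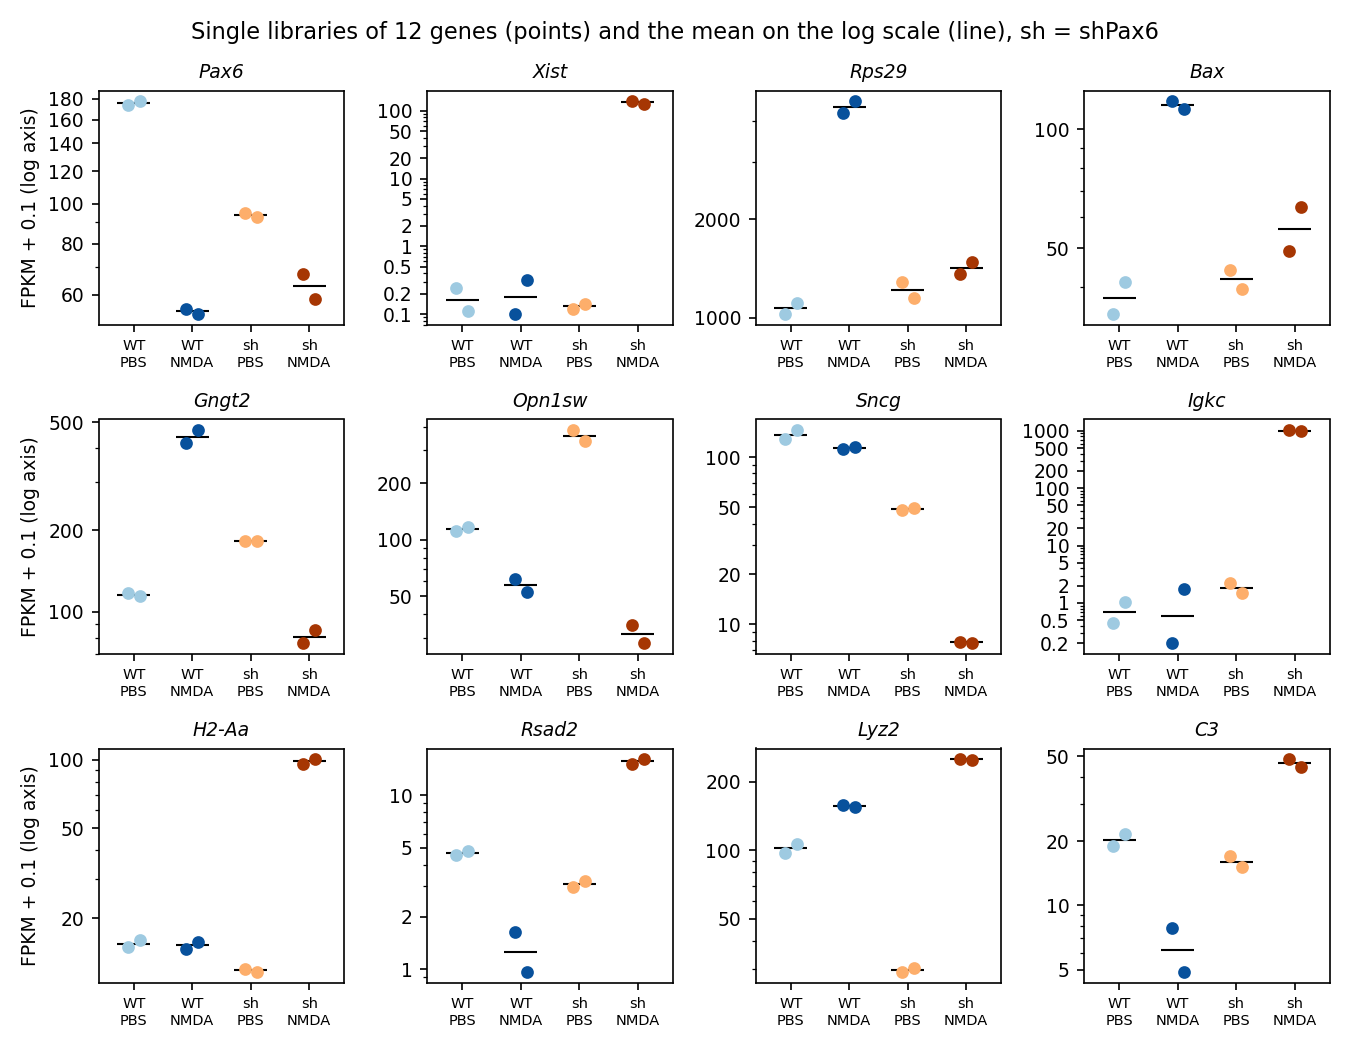
FPKM + 0.1 of 12 genes in each of the 8 libraries (points, log axis) with the mean on the log scale (line) for WT and shPax6 (sh) retinas after PBS or NMDA. *Xist* and *Igkc* are high only in the 2 shPax6 NMDA libraries, *Gngt2* reverses the order of the genotypes between PBS and NMDA, and *Rps29* and *Bax* are highest in the 2 WT NMDA libraries.

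Markers of RGCs, the neurons that NMDA injures most, fell in both genotypes, with a median response of -1.59 over 25 genes in WT and -1.55 in shPax6 retinas, and 16 of 25 genes fell in each, against 20.9% and 4.94% of all genes. The median response difference of 0.18 changed sign on TPM (-0.31), with a pseudocount of 1 (-0.29) and without WT NMDA replicate 1 (-0.19) or shPax6 NMDA replicate 2 (-0.33). The median of all genes was -0.28, and -0.80 on TPM. Under PBS the list stood 1.47 lower at the median in shPax6 than in WT retinas, with 14 genes lower and 0 higher against 3.9% and 0.522% of all genes, and after NMDA 1.49 lower. In these bulk samples fewer cells of a type and less RNA per cell cannot be told apart.

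Of the 25 RGC genes, 3 had a higher and 2 a lower response in WT, against 10.3% and 21.7% of all genes. The higher share was near that of all genes. These 3, *Sncg*, *Nrn1* and *Thy1*, fell in shPax6 retinas and fell less or did not fall in WT. *Sncg*, gamma-synuclein, went from 128 and 145 FPKM to 112 and 116 FPKM in WT and from 48.3 and 49.8 FPKM to 7.78 and 7.64 FPKM in shPax6 retinas. The groups did not overlap within either genotype, and the shPax6 libraries were the lower before and after injury. The difference of the responses was 2.40 (standard error 0.10, limma adjusted p = 8.32e-07), and 1.57 after the length correction. *Nrn1*, neuritin, differed by 1.67 (limma adjusted p = 0.00141; 0.99 with a pseudocount of 1), and *Thy1*, a surface glycoprotein of RGCs, by 1.16 (limma adjusted p = 0.000127; 0.69 after the correction). *Thy1* changed by 0.01 in WT and by -1.14 in shPax6 retinas. *Nefl*, neurofilament light chain, fell by 2.598 in WT and by 2.29 in shPax6 retinas, a difference of -0.31 (limma adjusted p = 0.0423) that was 0.35 after the correction. *Isl1*, a homeobox factor of RGCs and of some bipolar and amacrine cells, fell from 34.1 and 32.4 FPKM to 13.8 and 12.1 FPKM in WT and stood between 21.4 and 24.3 FPKM in all 4 shPax6 libraries, a difference of -1.29 (limma adjusted p = 9.7e-05).

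Several amacrine and neuropeptide genes had a higher response in WT than in shPax6 retinas. Of 20 amacrine genes 16 fell in shPax6 and 10 in WT retinas, against 4.94% and 20.9% of all genes. A higher response in WT was called for 7 and a lower one for 1, against 10.3% and 21.7% of all genes. The median difference was 0.28, or 0.97 after the length correction, and -0.24 on TPM, where the median of all genes was -0.80. *Calb2*, the calcium-binding protein calretinin of amacrine cells and RGCs, went from 265 and 285 FPKM to 130 and 132 FPKM in WT and from 145 and 148 FPKM to 12.1 and 10.5 FPKM in shPax6 retinas. For *Calb2* the difference was 2.62 (standard error 0.10, limma adjusted p = 8.21e-07) and 2.27 after the correction. Of 12 neuropeptide genes 6 were higher and 1 lower in WT, against 10.3% and 21.7% of all genes. Their median was 1.66, and 1.00 after the correction. In WT 2 of the 12 rose and 2 fell, against 14.2% and 20.9% of all genes. In shPax6 retinas 1 rose and 5 fell, against 8.64% and 4.94%. *Npy*, neuropeptide Y, rose from 28.7 and 26.5 FPKM to 132 and 112 FPKM in WT and stood between 21.0 and 28.4 FPKM in the 4 shPax6 libraries. *Npy* differed by 2.27 (standard error 0.21, limma adjusted p = 3.54e-05).

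Genes of the retinal pigment epithelium (RPE), the layer behind the photoreceptors that can come along in dissection, led the class that fell more in shPax6 retinas. *Ttr*, transthyretin, a carrier of retinol and thyroid hormone, was at 30.2 and 36.8 FPKM in WT PBS, 56.6 and 55.8 FPKM in WT NMDA, 35.8 and 32.3 FPKM in shPax6 PBS and 2.46 and 4.37 FPKM in shPax6 NMDA. The shPax6 NMDA libraries alone were low. *Ttr* differed by 4.09 (standard error 0.31, limma adjusted p = 1.38e-05) and *Rgr*, an opsin of RPE and Müller cells, by 2.97 (limma adjusted p = 0.000106). Of 10 RPE and pigment genes 5 were higher and 1 lower in WT, against 10.3% and 21.7% of all genes. The other genes the rule named in this class were *Ephx4*, an epoxide hydrolase family member, with a difference of 3.31, *Syt5*, a synaptotagmin, with 2.69, and *Agr2*, a disulfide isomerase, with 2.68 (limma adjusted p = 0.000412, 4.2e-05 and 0.000268).

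Among inflammatory genes, a larger response in shPax6 retinas was more frequent than a larger one in WT. Of 30 interferon-stimulated genes, the antiviral program that type I and type II interferons switch on, 15 had a lower response in WT and 0 a higher one, against 21.7% and 10.3% of all genes. Their median response was -0.39 in WT and 0.91 in shPax6 retinas, and the median difference of -1.25 was -1.39 after the length correction, with 14 genes lower and 0 higher. *Rsad2*, viperin, an antiviral enzyme (chr12, GRCm38), fell from 4.44 and 4.7 FPKM to 1.53 and 0.86 FPKM in WT and rose from 2.88 and 3.13 FPKM to 15.2 and 16.1 FPKM in shPax6 retinas. No 2 of the 4 groups overlapped. The 2 responses differed by -4.24 (standard error 0.37, limma adjusted p = 2.77e-05). *Gbp2*, a guanylate-binding protein of the interferon-gamma response, moved in opposite directions too, with a WT response of -1.49, a shPax6 response of 1.19 and a difference of -2.67 (limma adjusted p = 9.32e-06). *Ifit2*, which binds foreign RNA, fell by 2.37 in WT and changed by 0.18 in shPax6 retinas, a difference of -2.55 (limma adjusted p = 0.00037). The factor *Irf7* was an exception, rising in both and more in WT, with a difference of 0.95 (limma adjusted p = 0.00238).

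Promoter sequence was searched as a description of the interferon-stimulated list. The interferon-stimulated response element is bound by the IRF and STAT factors, and its core was searched on both strands, as GAAA, any 2 bases and GAAA or as TTTC, any 2 bases and TTTC, within 250 bases before to 50 after the start site of the RefSeq gene (GRCm38.p6). Of 14 genes with a lower response in WT and a RefSeq promoter, 10 held it (71.43%), of the other 9 interferon-stimulated genes with a promoter 4 (44.44%), and of all 27025 genes 1079 (3.99%). The list was drawn up as interferon-stimulated genes, so a share above that of all genes follows from how it was chosen. Within the list, the gap between 10 of 14 and 4 of 9 rests on few genes and was not tested. A match is a description and not proof of a site. The windows of 4 genes with large differences are printed 5′ to 3′ on the strand of the gene, with the match in capitals, to show where in each promoter the element lies.
Rsad2, chr12:26456553-26456582, minus strand: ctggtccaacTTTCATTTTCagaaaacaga
Gbp7, chr3:142530273-142530302, plus strand: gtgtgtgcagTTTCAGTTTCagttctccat
Gbp2, chr3:142620594-142620623, plus strand: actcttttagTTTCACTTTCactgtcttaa
Ifit1, chr19:34640775-34640804, plus strand: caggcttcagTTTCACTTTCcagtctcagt
Counted from the start site, the match began at base -120 in *Rsad2*, -53 in *Gbp7*, -59 in *Gbp2* and -104 in *Ifit1*. *Ifit3* and *Ifit3b*, near-identical copies that share reads, also held it.

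Antigen presentation genes were among them. *H2-Aa*, the alpha chain of a class II molecule of B cells, macrophages and dendritic cells, was at 14.9 and 16.0 FPKM in WT PBS and 14.7 and 15.7 FPKM in WT NMDA, and rose from 11.9 and 11.51 FPKM to 96 and 100.6 FPKM in shPax6 retinas. Only the shPax6 NMDA libraries stood out. *H2-Aa* differed by -3.08 (standard error 0.13, limma adjusted p = 8.58e-07) and *Cd74*, the invariant chain of class II, by -2.55 (limma adjusted p = 5.19e-06). *B2m*, the light chain of class I, was at 189 to 253 FPKM in 6 libraries and at 668 and 614 FPKM in shPax6 NMDA, a difference of -1.45 (limma adjusted p = 1.47e-05). Of 19 genes of the list 7 were lower and 1 higher in WT, against 21.7% and 10.3% of all genes. The exception was *Psmb10*, an immunoproteasome subunit, with a difference of 1.86 (limma adjusted p = 0.000161) that was 0.98 after the length correction. The antibody genes given above were high in the same 2 libraries as the class II genes, and their part in this result was not tested.

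Genes of monocytes and macrophages had a median response difference of -2.31 over 18 genes, or -1.80 after the length correction. Of these genes 11 were lower and 0 higher in WT, against 21.7% and 10.3% of all genes. In shPax6 retinas 16 of the 18 rose, and in WT 5, against 8.64% and 14.2% of all genes. Much of the gap lay in the baseline, since under PBS the list was 2.12 lower in shPax6 than in WT retinas and after NMDA 0.64 higher. *Lyz2*, lysozyme of myeloid cells, went from 97.7 and 106 FPKM to 158 and 155 FPKM in WT and from 29 and 30.3 FPKM to 252 and 250 FPKM in shPax6 retinas. The shPax6 libraries were thus the lowest before and the highest after injury. The difference was -2.46 (standard error 0.09, limma adjusted p = 7.07e-07). *Arg1*, arginase 1, of the same list, was at 11.8 and 14.8 FPKM in WT PBS but 0.61 and 0.35 FPKM in shPax6 PBS, and at 28.1 and 25.4 FPKM against 62.0 and 59.2 FPKM after NMDA, a difference of -5.74 (limma adjusted p = 1.97e-06). *Ptprc*, the pan-leukocyte marker CD45, fell from 3.82 and 2.95 FPKM to 1.46 and 0.92 FPKM in WT and rose from 0.91 and 1.36 FPKM to 4.94 and 5.28 FPKM in shPax6 retinas, a difference of -3.56 (limma adjusted p = 0.000131).

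Chemokines were divided by gene. Of 24 chemokine and receptor genes, 13 were lower and 1 higher in WT, against 21.7% and 10.3% of all genes, with a median of -1.39. *Ccl8*, a monocyte attractant, was at 44.9 and 66.4 FPKM in shPax6 NMDA and at 2.35 FPKM or less in the other 6 libraries, and *Cxcl10*, induced by interferon-gamma, at 40.7 and 47.7 FPKM against 3.53 to 7.68 FPKM. Their differences were -5.45 and -3.22 (limma adjusted p = 0.00264 and 0.00143). *Ccl6* rose in both, from 7.99 and 10.6 FPKM to 36.2 and 43.7 FPKM in WT and from 2.19 and 1.98 FPKM to 79.5 and 78.5 FPKM in shPax6 retinas, a difference of -3.08 (limma adjusted p = 7.15e-05). *Ccl2*, the main attractant of CCR2 monocytes, rose by 4.84 in WT and by 4.50 in shPax6 retinas, and its difference of 0.34 (limma adjusted p = 0.541) changed sign in 3 settings.

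Complement genes were called lower in WT in 9 of 15 cases and higher in 1, against 21.7% and 10.3% of all genes. Their median was -1.55, or -1.44 after the length correction. *C3*, the central protein of the cascade, fell from 18.8 and 21.5 FPKM to 7.71 and 4.77 FPKM in WT and rose from 16.9 and 15 FPKM to 48.4 and 44.2 FPKM in shPax6 retinas. *C3* differed by -3.24 (standard error 0.30, limma adjusted p = 3.93e-05). *Cfb*, factor B of the alternative pathway, differed by -2.66 (limma adjusted p = 1.23e-05). *C1qa*, made by microglia, rose in both genotypes from unequal baselines, from 11.51 and 12.5 FPKM to 22.4 and 21.5 FPKM in WT and from 57.1 and 50.8 FPKM to 172 and 165 FPKM in shPax6 retinas. Its difference of -0.77 (limma adjusted p = 0.00244) missed the threshold of 1 and was -1.44 after the correction.

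Of 24 genes of reactive gliosis and the acute phase, 13 had a lower and 0 a higher response in WT, against 21.7% and 10.3% of all genes, with a median of -1.27. After the length correction 10 were lower and 1 higher, against 11.0% and 7.38% of all genes, with a median of -0.67. *Gfap*, the intermediate filament of reactive Müller glia and astrocytes, went from 78 and 81.6 FPKM to 55.7 and 55.3 FPKM in WT and from 50.4 and 42.9 FPKM to 103 and 97.8 FPKM in shPax6 retinas. The 2 genotypes moved in opposite directions from unequal baselines. *Gfap* differed by -1.63 (standard error 0.11, limma adjusted p = 6.46e-06). *Lcn2*, lipocalin 2, stood at 774 to 934 FPKM in all 4 WT libraries, at 507 and 500 FPKM in shPax6 PBS and at 2030 and 1997 FPKM in shPax6 NMDA, a difference of -1.80 (limma adjusted p = 7.07e-07). *Timp1*, an inhibitor of matrix proteases, went from 178 and 182 FPKM to 145 and 142 FPKM in WT and from 36.7 and 31.0 FPKM to 137 and 152 FPKM in shPax6 retinas. For *Timp1* the injured groups overlapped, and the difference of -2.42 (limma adjusted p = 1.7e-06) lay in the baseline. *Serpina3n*, an acute phase protease inhibitor, differed by -2.33 (limma adjusted p = 5.37e-07), from opposite responses of -1.24 in WT and 1.09 in shPax6 retinas.

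**Figure D4:**
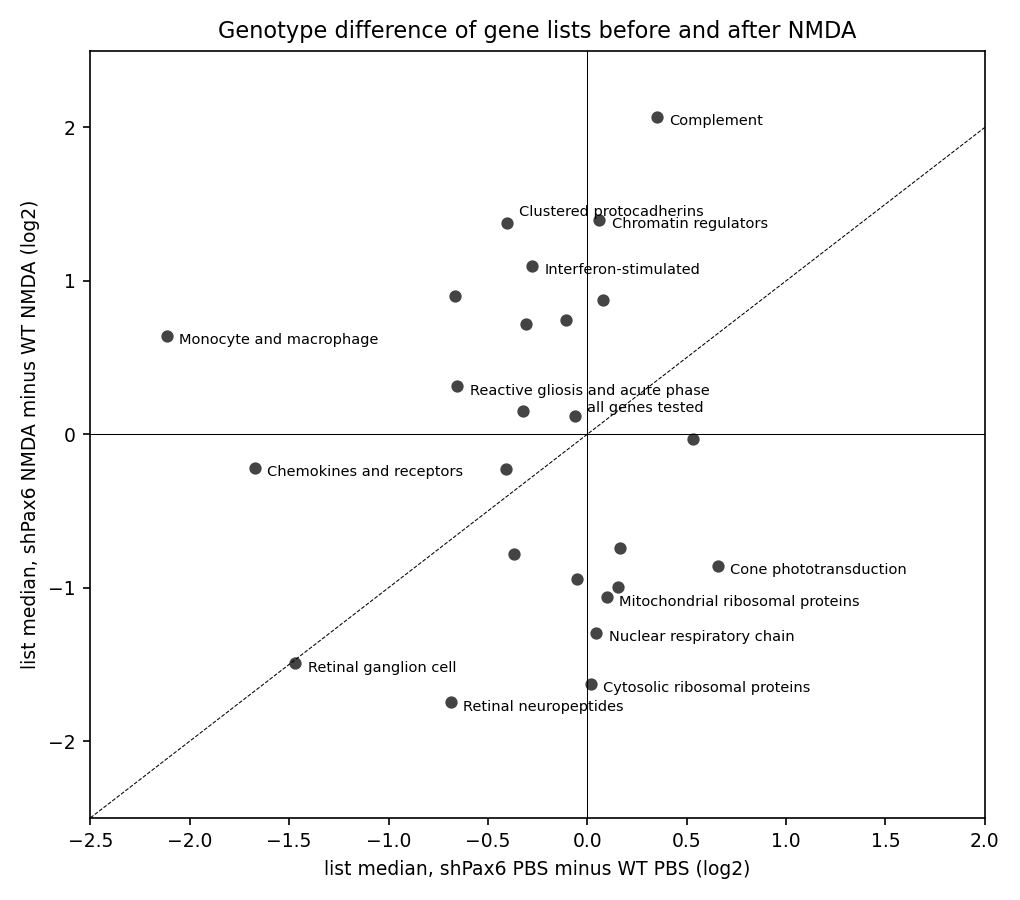
List medians of the difference between shPax6 and WT retinas after PBS (x axis) and after NMDA (y axis), in log2. Lists below the dashed line had a response that was higher in WT and lists above it one that was lower. Monocyte and macrophage genes lie at -2.12 on the x axis and 0.64 on the y axis, complement genes at 0.35 and 2.07, cytosolic ribosomal protein genes at 0.02 and -1.62, and RGC genes near the line at -1.47 and -1.49.

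Immediate early genes differed from one another. *Fos*, the AP-1 subunit that neuronal activity switches on, lay between 16.2 and 19.5 FPKM in 6 libraries and at 75.8 and 87.2 FPKM in shPax6 NMDA. The difference of *Fos* was -2.25 (standard error 0.18, limma adjusted p = 1.93e-05). *Jun* lay between 20.0 and 23.3 FPKM in 6 libraries and at 56.2 and 50.8 FPKM in shPax6 NMDA, a difference of -1.33 (limma adjusted p = 3.56e-05) that was -0.74 after the length correction. *Egr1* differed by -1.89 (limma adjusted p = 1.31e-05). *Junb* rose by 1.69 in WT and 1.60 in shPax6 retinas and *Atf3* by 1.34 and 1.40, with differences of 0.09 and -0.06 (limma adjusted p = 0.596 and 0.792) whose signs were not stable. Of 13 genes of AP-1 and ATF3 5 were lower and 0 higher in WT, against 21.7% and 10.3% of all genes.

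Chromatin regulators had a median response of -1.19 in WT and 0.00 in shPax6 retinas. Of 42 chromatin regulators 26 were lower and 1 higher in WT, with a median of -1.20. *Kmt2a*, a histone methyltransferase, went from 36.6 and 33.2 FPKM to 8.88 and 9.26 FPKM in WT and stood between 47.5 and 60.5 FPKM in the 4 shPax6 libraries. *Kmt2a* differed by -2.18 (limma adjusted p = 3.1e-06) on the deposited values and by -0.43 after the correction. *Kmt2d* differed by -1.81 (limma adjusted p = 2.8e-06) and by -0.37. After the correction the list had 3 lower and 5 higher genes and a median of -0.18, so its difference on the deposited values cannot be told apart from the trend with length.

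Clustered protocadherins, adhesion proteins by which neurons tell themselves from others, kept part of the difference. Of 52 genes 34 were lower and 1 higher in WT, with a median of -1.95, and after the correction 17 were lower and 1 higher, with a median of -1.06. *Pcdhgc3* differed by -2.22 (limma adjusted p = 4.12e-05) and by -1.26 after the correction. *Pcdhgc4* was the exception and had the largest difference of the genes named in the class that rose in WT and fell in shPax6 retinas. It rose from 9.8 and 9.32 FPKM to 70.1 and 66.7 FPKM in WT and fell from 5.46 and 4.81 FPKM to 2.77 and 2.24 FPKM in shPax6 retinas. Its difference was 3.84 (standard error 0.39, limma adjusted p = 6e-05), and 4.37 after the correction. The genes of a protocadherin cluster share their last exons, so the division of reads between them is uncertain.

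Of 16 genes of the JNK stress kinase pathway, 9 were lower and 0 higher in WT, against 21.7% and 10.3% of all genes, with a median of -1.05. After the length correction 2 were lower and 0 higher, with a median of -0.23. The lower share was then near the 11.0% of all genes. *Mapk8*, which encodes JNK1, went from 25.8 and 27.1 FPKM to 6.62 and 8.18 FPKM in WT and stood between 27.6 and 33.5 FPKM in the 4 shPax6 libraries. Its difference was -1.75 (standard error 0.17, limma adjusted p = 5.74e-05) and -1.08 after the correction. *Mapk10*, which encodes the neuronal JNK3, differed by -1.84 (standard error 0.51, limma adjusted p = 0.0152), a call lost without WT PBS replicate 2 (adjusted p = 0.0604), WT NMDA replicate 2 (0.0635) or shPax6 NMDA replicate 1 (0.0709).

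The genes named for a larger fall in WT came from several functions. *Adnp*, a homeobox protein of chromatin, fell from 7.63 and 10.6 FPKM to 0.35 and 0.07 FPKM in WT and went from 10.9 and 12.7 FPKM to 6.2 and 9.48 FPKM in shPax6 retinas, a difference of -4.43 (limma adjusted p = 0.000443). *Kdm6a*, an X-linked histone demethylase that escapes X inactivation, went from 19.3 and 18.3 FPKM to 1.57 and 2.29 FPKM in WT and from 14.6 and 19.0 FPKM to 28.1 and 25.4 FPKM in shPax6 retinas, a difference of -3.92 (limma adjusted p = 5.54e-06). The 2 libraries in which *Kdm6a* was highest were those with *Xist*. *Zkscan16* differed by -4.0 (limma adjusted p = 0.000873), and *Gm38394*, a gene model that may share reads with its neighbors, by -4.07.

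Of the genes with opposite responses, those that rose in WT and fell in shPax6 retinas included *Ptges*, prostaglandin E synthase. It rose from 1.49 and 1.3 FPKM to 5.04 and 5.54 FPKM in WT and fell from 3.13 and 2.03 FPKM to 0.73 and 1.15 FPKM in shPax6 retinas. *Ptges* differed by 3.22 (limma adjusted p = 0.000707). *Ppm1j*, a protein phosphatase, rose from 15.3 and 18.4 FPKM to 57.8 and 60.3 FPKM in WT and fell from 20.1 and 17.8 FPKM to 9.28 and 6.12 FPKM in shPax6 retinas, a difference of 3.13 (limma adjusted p = 2.9e-05). *Ttc9b* and *Ccdc63* differed by 3.81 and 3.58 (limma adjusted p = 0.0024 and 5.54e-05).

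In the reverse class, *Fbln1*, fibulin 1 of the extracellular matrix, had the largest difference of the 5 genes named, -7.23 (standard error 0.42, limma adjusted p = 3.79e-06). It went from 2.00 and 1.79 FPKM to 0.62 and 0.51 FPKM in WT and from 0.17 and 0.36 FPKM to 20.1 and 15.2 FPKM in shPax6 retinas. *Sned1*, another matrix protein, differed by -4.43 (limma adjusted p = 6.41e-05). Both rose in the libraries in which the connective tissue genes were high. *Septin2*, a cytoskeletal GTPase, is listed under 2 overlapping gene identifiers: the one named differed by -4.22 (limma adjusted p = 3.14e-05), and the other, at 22.7 to 39.5 FPKM in the 8 libraries, by -0.57 (limma adjusted p = 0.0097), so reads may have been divided between them.

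The genes named for a larger rise in shPax6 retinas, besides *Arg1*, included genes known from myeloid cells, the meninges and plasma. *Gpx3*, the secreted glutathione peroxidase, lay between 3.43 and 7.13 FPKM in 6 libraries and at 115 and 135 FPKM in shPax6 NMDA, a difference of -4.99 (standard error 0.30, limma adjusted p = 4.21e-06). *Slc6a13*, a GABA transporter of the meninges and vessel walls, differed by -5.30 (limma adjusted p = 0.00146). *Ms4a6b* and *Slfn4*, which are expressed in myeloid and other leukocytes, differed by -4.73 and -4.64 (limma adjusted p = 0.00609 and 3.81e-06). *Slfn4* was at 12.2 and 11.2 FPKM in WT PBS against 0.84 and 0.91 FPKM in shPax6 PBS, and at 6.13 and 6.56 FPKM against 11.2 and 15.7 FPKM after NMDA, so its difference lay mostly in the baseline.

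**Figure D5:**
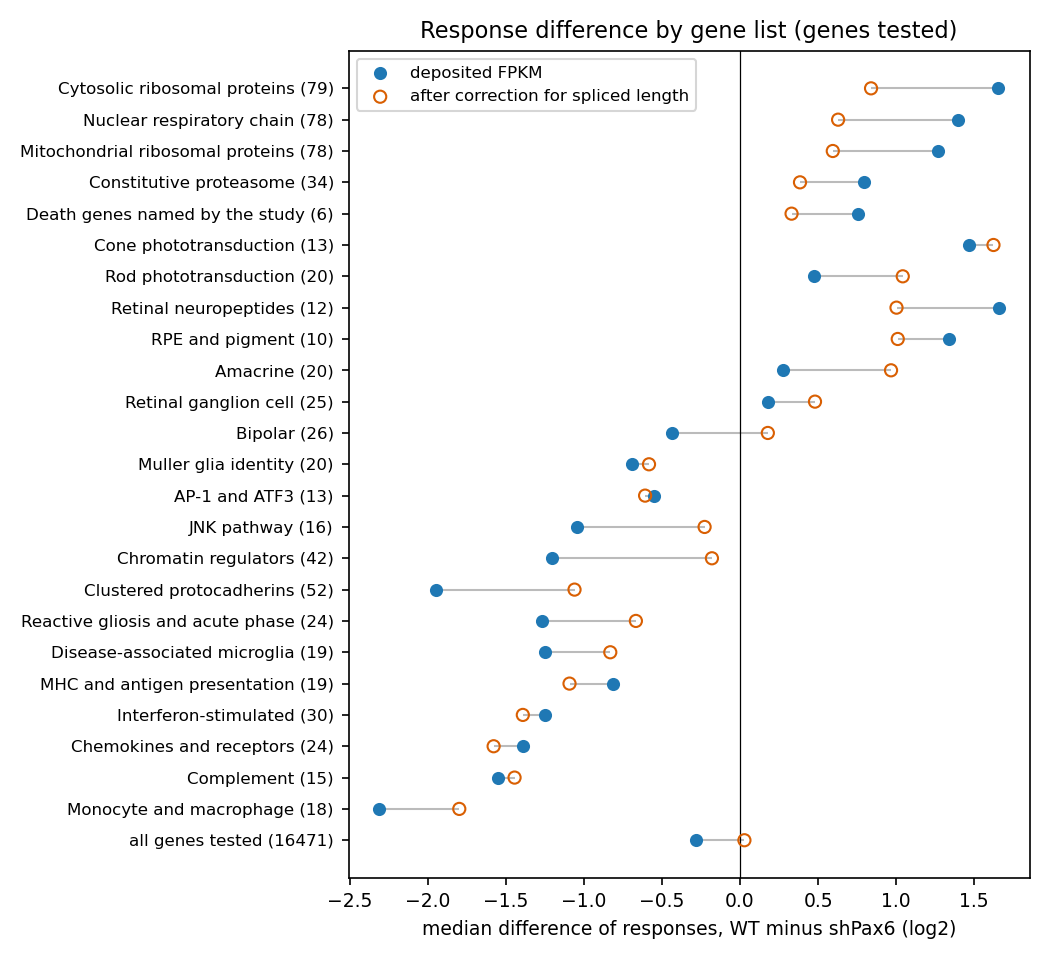
Median response difference (WT minus shPax6, log2) of 24 gene lists and of all genes tested, on the deposited FPKM (filled) and after the length correction (open). The number of genes tested stands beside each name. Ribosomal, respiratory and cone lists lie right of 0 and immune, glial and adhesion lists left of it. With the correction the chromatin median moves from -1.20 to -0.18.

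Neutrophil genes were higher in WT than in shPax6 retinas before and after injury. Under PBS the 15 genes were 3.41 lower at the median in shPax6 than in WT retinas, and after NMDA 2.49 lower. In shPax6 retinas 11 of the 15 were called lower after PBS and 13 after NMDA, against 3.9% and 14.4% of all genes. Their FPKM summed to 252 and 277 in WT PBS and to 2046 and 2093 in WT NMDA. The sums were 17.8 and 14.5 in shPax6 PBS and 87.65 and 97.9 in shPax6 NMDA. They rose in both genotypes, 10 of 15 in WT and 9 of 15 in shPax6 retinas, against 14.2% and 8.64% of all genes. A higher response in WT was called for 3 and a lower one for 5, against 10.3% and 21.7% of all genes. Their median response difference of -0.35 was 0.13 with a pseudocount of 1 and -0.97 after the length correction. It was -1.52 when genes were filtered on the mean of all 12 libraries.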

How the data were processed

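Retinal poly(A) RNA was sequenced as paired reads. According to the submitters' processing notes, STAR 2.7.1a, RSEM 1.3.3, edgeR 3.36.0 and R 4.1.0 were used with GRCm38.p6, and the authors deposited FPKM per gene and per transcript. The transcript table was not used here. Read counts were not used here and depth is unknown, so no counting interval is given. The deposited gene table held 55487 genes, of which 55227 matched GENCODE M21 by identifier. Genes with a mean above 1 FPKM in at least 1 of 6 groups were fitted as log2(FPKM + 0.1) in limma 3.58.1 (R 4.3.3) with an intensity trend, over all 12 libraries (6 residual degrees of freedom). Fold changes on this scale understate the change of low genes. The response difference was a contrast of the group means, called where its size passed 1 and its Benjamini-Hochberg adjusted p lay under 0.05. In the length correction, a lowess curve (span 0.3) of log2 values on spliced length was subtracted in each library. The scripts were tested on simulated data. Tables and figures used Python 3.11.15, pandas 2.3.3 and matplotlib 3.10.9.

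Members, gene lists and tests were chosen with earlier results of these data known. For each of 6 classes, the 5 protein-coding genes named had the largest difference among those called with and without the length correction, above 5 FPKM on average in a group and not listed at 0 in any of the 8 libraries. Members of the gene lists could also be named. Of the genes so chosen, 1 is not reported here. *Xist*, *Eif2s3y* and the antibody and connective tissue genes were chosen after their values were seen. Alternatives were pseudocounts of 0.5 and 1, 2 other filters, TPM, 75th-percentile scaling, quantile normalization, the spread of the 4 groups alone, no intensity trend, a replicate block and leaving out each library. Combinations of the length correction with other settings were chosen after seeing the data.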

Additional observations from a re-analysis of the deposited data

Results flagged for a closer look

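The effect of NMDA differed between WT and shPax6 retinas, by the interaction contrast in limma, for 1693 genes with a higher and 3571 genes with a lower response in WT. Among the genes named with opposite responses, *Pcdhgc4* (3.84), *Ttc9b* (3.81), *Ccdc63* (3.58), *Ptges* (3.22) and *Ppm1j* (3.13) rose in WT and fell in shPax6 retinas. *Fbln1* (-7.23), *Sned1* (-4.43), *Rsad2* (-4.24), *Septin2* (-4.22) and *Ptprc* (-3.56) fell in WT and rose in shPax6 retinas. *Xist* differed by -9.86, being near 0 in 6 libraries and high in both shPax6 NMDA libraries.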

How the results depend on the processing

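Counts of called genes moved with the scaling and with the length correction. Genes with a higher response in WT, 1693 on the deposited values, numbered 671 on TPM, 3007 with no threshold on size, and 1011 with the length correction and the spread of the 4 groups. Genes with a lower response, 3571 on the deposited values, numbered 5929 on TPM, 2186 after quantile normalization, 1804 after the length correction and 1508 with the correction and the spread of the 4 groups. Leaving out each library gave 1461 to 1933 higher and 3119 to 3713 lower genes, and with the length correction 985 to 1613 and 1429 to 1982. In the latter series, higher genes numbered 1051 without WT PBS replicate 2, 1093 without WT NMDA replicate 1 and 1101 without shPax6 PBS replicate 1, and lower genes 1455 without WT PBS replicate 2, 1618 and 1763 without WT NMDA replicate 1 and 2, 1638 and 1968 without shPax6 PBS replicate 1 and 2, and 1772 without shPax6 NMDA replicate 1.

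The class that rose in WT and fell in shPax6 retinas held 15 genes on TPM, 60 after quantile normalization and 14 after the length correction, and 23 to 76 without single libraries. The reverse class held 32 with a pseudocount of 1, 206 on TPM, 34 after quantile normalization and 61 after the length correction, and 69 to 124 without single libraries. The class that rose more in WT held 372 on TPM and 488 after the length correction (1087 to 1249 without single libraries). The class that fell more in shPax6 retinas held 115 with a pseudocount of 1, 310 after quantile normalization and 313 after the length correction (134 to 350). The class that fell more in WT held 4336 on TPM, 1443 after quantile normalization and 917 after the length correction (2020 to 2269). The class that rose more in shPax6 retinas held 412 after quantile normalization (556 to 772). The causes were not tested.

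Of 1843 values of 97 genes under these settings, 1783 kept their direction and side of the threshold, 38 fell below it, 9 passed it and 13 changed sign. The sign changed on TPM for *Ing4* (-0.001), *Dedd2* (-0.023), *Ccl2* (-0.209) and *Junb* (-0.434), after quantile normalization for *Junb* (-0.46), and after the length correction for *Gadd45a* (-0.089), *Nefl* (0.347) and *Ccl2* (-0.501). Without single libraries it changed for *Ccl2* (-0.249 to 0.938, the lowest without shPax6 PBS replicate 2), *Junb* (-0.057 to 0.236, the lowest without WT NMDA replicate 1) and *Atf3* (-0.197 to 0.084, with 0.048 without WT PBS replicate 1, 0.023 without WT NMDA replicate 2 and 0.084 without shPax6 PBS replicate 2). List medians changed sign for 19 of 68 lists after the length correction, 13 after quantile normalization and 7 on TPM. On TPM the median of all genes was itself lower, at -0.80 against -0.28 on the deposited values.

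Same-numbered libraries shared only a number, with correlations of their deviations from -0.015 to 0.024 over 6 pairs of groups. With a replicate block 1676 genes were higher and 3514 lower in WT, and 1775 lower with the block and the length correction.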

Other observations

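Lens genes, which can enter a retinal sample in dissection, had a median response of 1.43 in WT and 0.27 in shPax6 retinas over 19 genes, and 7 had a higher and 0 a lower response in WT, against 10.3% and 21.7% of all genes. After the length correction 2 were higher and 1 lower, against 7.38% and 11.0% of all genes, with a median of 0.36. Calcium store, pump and calpain genes, which handle the calcium that NMDA lets in, had a median response of -1.64 in WT and -0.18 in shPax6 retinas, and 11 of 20 had a lower response in WT. After the length correction 2 were lower and 1 higher, shares near those of all genes. Of 60 potassium channel genes 34 fell in WT and 27 in shPax6 retinas, against 20.9% and 4.94% of all genes. After the length correction 13 fell in WT and 31 in shPax6 retinas, where 1862 and 942 of all 16471 genes fell. On the deposited values 5 had a higher and 14 a lower response in WT, shares near the 10.3% and 21.7% of all genes. After the correction 15 were higher and 4 lower, against 7.38% and 11.0% of all genes.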
